A study of Mus musculus with 4 samples.

Results

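The 9 genes described here encode enzymes of the tricarboxylic acid (TCA) cycle and the pyruvate carboxylase that feeds it: Cs, Idh2, Idh3a, Idh3b, Ogdh, Dlst, Suclg1, Mdh2 and Pcx. They were taken by symbol from the 32285 genes of the count matrices, and all 9 were present. Their RNA was followed in nuclei of fat cells from the thymus and from epigonadal white adipose tissue, the fat beside the gonads, and their chromatin in a further thymic library. One single-nucleus RNA library came from 6 pooled thymi of 4-month male C57/BL6 mice, and 1 from epigonadal fat, labelled as 4-month male. For the third preparation 16 thymi of 6-month females were pooled and read by multiome, in which RNA and open chromatin are taken from each nucleus. All were labelled WT and naïve, and the thymus donors ate standard chow. For the epigonadal library, the sources used here give neither the strain nor how many animals it came from. Nuclei came from the floating layer of digested tissue, and each group is 1 library, so no difference has a replicate check and the depots differ in library as well as in tissue. Intervals printed below are 95% intervals that cover counting error only, and those at start sites fall short of it, as given there.

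In the TCA cycle, acetyl groups from pyruvate, fatty acids and amino acids are oxidised in the mitochondrial matrix, and the electrons are passed to the respiratory chain. Pyruvate carboxylase adds bicarbonate to pyruvate and so refills the oxaloacetate that citrate synthase needs. In white fat cells this refilling also serves the export of citrate for fatty acid synthesis and the making of glycerol for triglyceride storage, and in brown fat cells the cycle feeds heat production.

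The authors gave each adipocyte nucleus 1 of 5 labels: Ad Ia (35 thymic and 106 epigonadal nuclei), Ad Ib (49 thymic and 152 epigonadal), Ad IIa (231 thymic and 590 epigonadal), Ad IIb (16 thymic and 58 epigonadal) or Ad IIc (34 thymic and 658 epigonadal). A further 22235 thymic and 3479 epigonadal barcodes carried no label. The labels were given to these same nuclei, so contrasts between labels describe the annotation and are not independent evidence of a difference. The libraries held 10054839 and 6504841 UMIs (unique molecules). Ad Ia and Ad Ib together, called Ad I here, had a median of 500.5 UMIs per thymic nucleus and 744.5 per epigonadal nucleus. Levels are UMIs summed per label, scaled to 1000000 counts of nuclear-encoded genes (CPM). Of 11 adipocyte markers, 10 had a UMI in thymic Ad I nuclei, and the list summed to 8595 CPM there against 10775 CPM in epigonadal Ad I nuclei. Thymic Ad IIa nuclei carried 12064 CPM of endothelial markers beside 3694 CPM of adipocyte markers, and epigonadal Ad IIa nuclei 8896 beside 9244 CPM, so the adipocyte name of Ad IIa is shared with endothelial RNA in both. The 4-month libraries had 147 barcodes in common, of which 0 were labelled in both.

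Promoters are shown for the 2 genes on which the depot and label comparisons turn, Pcx and Ogdh. The table of RefSeq promoters used here (GRCm38.p6, the build of the deposited fragments) matched 8 of the 9 members, all but Idh3a, with 14 starts. Each sequence covers 250 bases before and 50 bases after a start, 5′ to 3′ on the gene's strand, and capitals mark CCAAT boxes (CCAAT) and Sp1 boxes (GGGCGG) on either strand. Pcx has 2 listed starts, and the first of the 6 Ogdh starts is given. They lie at chr19:4510222-4510521 (Pcx, upstream start, plus strand), chr19:4594069-4594368 (Pcx, downstream start, plus strand) and chr11:6291347-6291646 (Ogdh, plus strand).
Pcx upstream: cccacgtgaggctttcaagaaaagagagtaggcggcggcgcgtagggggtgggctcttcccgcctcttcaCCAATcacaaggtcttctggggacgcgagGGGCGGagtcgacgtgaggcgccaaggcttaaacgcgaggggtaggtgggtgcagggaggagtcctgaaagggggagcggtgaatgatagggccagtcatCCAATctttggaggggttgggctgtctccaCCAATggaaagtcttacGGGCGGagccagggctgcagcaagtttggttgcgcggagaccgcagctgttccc
Pcx downstream: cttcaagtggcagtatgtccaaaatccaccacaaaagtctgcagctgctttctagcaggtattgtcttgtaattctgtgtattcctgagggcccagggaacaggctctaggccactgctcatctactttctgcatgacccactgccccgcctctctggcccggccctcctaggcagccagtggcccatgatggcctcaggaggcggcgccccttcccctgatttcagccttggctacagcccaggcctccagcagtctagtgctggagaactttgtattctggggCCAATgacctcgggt
Ogdh: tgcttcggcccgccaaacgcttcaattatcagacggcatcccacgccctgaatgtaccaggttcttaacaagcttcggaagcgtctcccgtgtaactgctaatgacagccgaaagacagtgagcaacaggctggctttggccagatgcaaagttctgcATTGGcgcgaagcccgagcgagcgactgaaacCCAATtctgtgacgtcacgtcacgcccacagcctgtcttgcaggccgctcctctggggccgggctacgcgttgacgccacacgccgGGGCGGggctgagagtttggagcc
The upstream Pcx promoter held 3 CCAAT boxes and 2 Sp1 boxes and was 61.7% G or C. The downstream one held 1 CCAAT box, placed after the start, and 0 Sp1 boxes, at 57% G or C. The Ogdh promoter shown held 2 CCAAT boxes and 1 Sp1 box. Among all 32851 mouse promoters of this length, 37.4% held a CCAAT box and 35.7% an Sp1 box on either strand. An estrogen-related receptor element (TNAAGGTCA), a nuclear respiratory factor element (GCGCA and GCGC with 1 free base between them), a direct repeat (2 copies of AGGTCA with 1 free base between them) and a TATA box (TATAAA) were each found in 0 of the 14 member promoters. The shares of all promoters holding them on either strand were 1.28%, 4.60%, 0.0396% and 13.6%. The receptor element and the direct repeat share the letters AGGTCA.

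Pcx, the carboxylase, had the widest spread between labels of the 9 genes. Thymic Ad Ia nuclei held 30 UMIs, a level of 1085 CPM, in 13 of 35 nuclei, with 8 of the UMIs in 1 nucleus. Thymic Ad Ib held 7 (285 CPM), Ad IIa 5 (12.45 CPM) and both Ad IIb and Ad IIc 0, against 384 (83.4 CPM) for the unlabelled barcodes. The counts of 0 allow up to 111 CPM in Ad IIb and 55.3 CPM in Ad IIc. Epigonadal Ad Ia nuclei held 118 UMIs (822 CPM) and Ad Ib 43 (358 CPM). Epigonadal Ad IIa held 117 (94.6 CPM), Ad IIb 7 (49.7 CPM) and Ad IIc 322 (624 CPM), against 771 (204 CPM) for the unlabelled barcodes. Ad Ia was thus the highest label in both depots, and Ad IIc was among the highest in epigonadal fat and at 0 in the thymus. The Ad IIc label held unlike RNA in the 2 libraries. Its thymic nuclei had 3059 CPM of adipocyte (8 of 11 with a UMI), 11002 of endothelial (10 of 10) and 25892 of erythroid markers (4 of 4), and its epigonadal nuclei 34299, 509.5 and 393 CPM, with every marker detected. The part of these in the Pcx values was not tested. In thymic Ad Ia 37.1% of nuclei had a Pcx UMI (interval 21.5 to 55.1%) at a median of 604 UMIs. The share was 2.165% in thymic Ad IIa nuclei, whose median was 1696 UMIs, and 1.51% in unlabelled thymic barcodes, whose median was 308.

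Pcx was higher in Ad Ia than in Ad Ib in each library. The log2 ratio was 1.85 (interval 0.71 to 3.36) in the thymic library, where it was the 1 of 4 members with 10 or more UMIs to be at least 2-fold higher, beside 15.4% of all genes so counted. Here and below, 10 or more UMIs means the UMIs of the 2 groups added up. In the epigonadal library it was 1.19 (0.69 to 1.74), 1 of the 2 members of 7 at least 2-fold higher, beside 9.97%. The summed cycle enzymes leaned the other way, at -0.39 (-1.15 to 0.35) and -0.21 (-0.72 to 0.30), with intervals that hold 0. Dlst, the succinyltransferase core of the 2-oxoglutarate dehydrogenase complex, went in opposite directions. It had 2 UMIs in thymic Ad Ia and 8 in Ad Ib (-1.94, -5.44 to 0.15), the 1 of 4 members at least 2-fold lower, beside 13.6% of genes. In epigonadal fat it had 10 and 1 (2.55, 0.25 to 8.51), and 0 of 7 members were at least 2-fold lower, beside 9.38%. Other RNA differed between these labels too. In the thymus, Ad Ia against Ad Ib had 10955 against 5939 CPM of adipocyte markers (10 and 8 of 11), 2133 against 4719 of brown or beige markers (6 and 8 of 8), 72.3 against 3051 of endothelial markers (2 and 9 of 10) and 73213 against 43975 of nuclear RNA. In epigonadal fat endothelial markers stood at 773 against 2029 CPM (10 of 10 in each) and adipocyte markers at 11560 against 9838 CPM (11 of 11 in each). The part of these in the Pcx ratios was not tested.

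**Figure D1:**
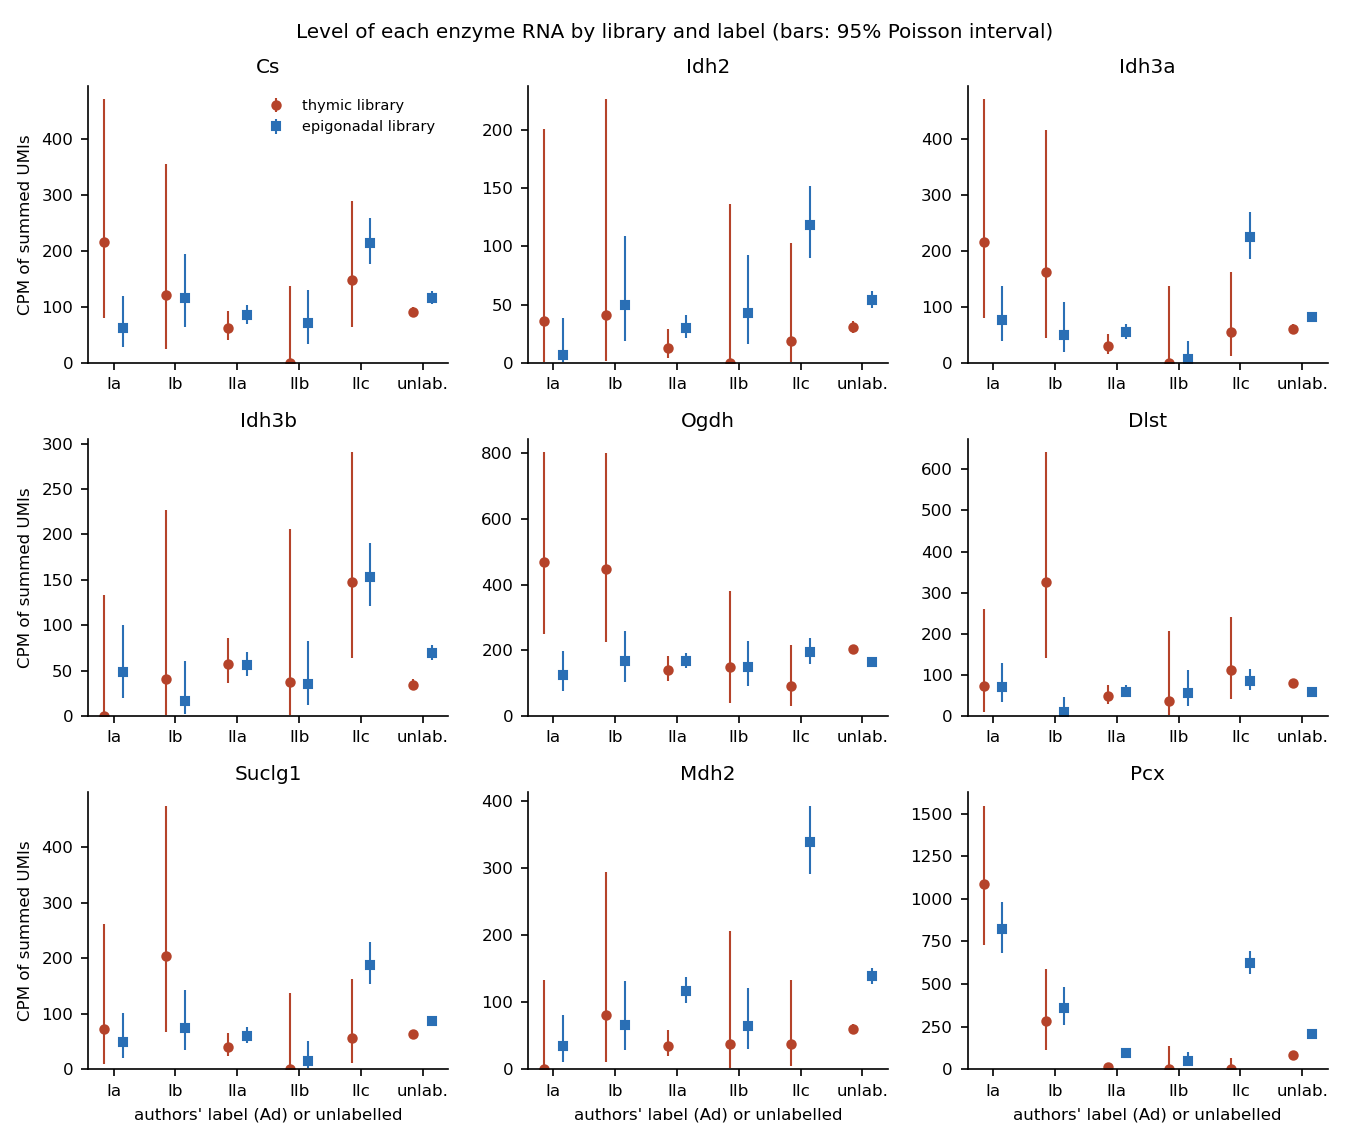
Level of each of the 9 enzyme RNAs (vertical axes, CPM of summed UMIs, from 0) in the 5 labels and the unlabelled barcodes (horizontal axes) of the thymic library (red circles) and the epigonadal library (blue squares), with 95% Poisson intervals. Pcx was highest in Ad Ia in both libraries, Ogdh was highest in thymic Ad Ia and Ad Ib, and Mdh2 was highest in epigonadal Ad IIc.

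The 8 cycle enzymes followed another order. Summed over the 8, thymic Ad Ia nuclei held 1085 CPM and Ad Ib nuclei 1424 CPM. Levels under the thymic Ad II labels were 423.5 CPM (Ad IIa), 259 CPM (Ad IIb) and 663 CPM (Ad IIc). In epigonadal fat the sums were 474, 549, 627, 440.5 and 1519 CPM in the same order of labels. Unlabelled barcodes held 621.5 CPM (thymic) and 768 CPM (epigonadal). Between those 2 sets of unlabelled barcodes 0 of 9 members were at least 2-fold higher in the thymic one, beside 11.1% of genes, and 3 were lower, beside 22.4%: Pcx (-1.29), Mdh2 (-1.23) and Idh3b (-1.01). Those thymic barcodes had 2468 CPM of adipocyte and 5052 CPM of T cell or thymocyte markers, with 51.2% mitochondrial UMIs, and the epigonadal ones 12373 CPM, 306 CPM and 10.7%, with every marker of both lists detected in each. The part of these in the difference was not tested. The 3 highest groups, epigonadal Ad IIc and thymic Ad Ib and Ad Ia, overlapped in their intervals. Thymic Ad Ia (732 to 1548 CPM) also overlapped the next group, the unlabelled epigonadal barcodes (740 to 796 CPM), and thymic Ad IIc (465 to 918.5 CPM). Nuclear RNA stood at 1829 CPM in epigonadal Ad IIc. From epigonadal Ad Ia to Ad IIb it stood at 44681, 39700, 10402 and 12029 CPM. Its part in this order was not tested.

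Ogdh, which decarboxylates 2-oxoglutarate, was the best counted cycle enzyme in thymic Ad I nuclei. It had 13 UMIs (470 CPM) in thymic Ad Ia nuclei, 4 of them in 1 nucleus, and 11 (447.5 CPM) in Ad Ib nuclei, at most 2 in 1 nucleus. Its other thymic values were 139.5 in Ad IIa, 148 in Ad IIb, 92.1 in Ad IIc and 203 in unlabelled barcodes. All 6 epigonadal values lay between 125 and 196 CPM, lowest in Ad Ia and highest in Ad IIc. Thymic Ad Ia and Ad Ib therefore lay above every other group, and the interval of Ad Ib (223 to 801 CPM) did not overlap that of the next group, the unlabelled thymic barcodes. It did overlap the wider intervals of several smaller groups, such as thymic Ad IIb (40.3 to 379 CPM) and epigonadal Ad IIc (159 to 238 CPM). Mdh2, the last enzyme of the cycle, showed a different order, with 339 CPM in epigonadal Ad IIc and 138 in unlabelled epigonadal barcodes, whose intervals did not overlap. In thymic nuclei Mdh2 had 0, 2, 14, 1 and 2 UMIs from Ad Ia to Ad IIc. Idh2, the NADP-dependent isocitrate dehydrogenase of mitochondria, was likewise highest in epigonadal Ad IIc at 118 CPM, apart from the next group, and had 8 UMIs in all labelled thymic nuclei. The Idh2 interval in Ad IIc (90.4 to 152 CPM) did overlap those of smaller groups, such as epigonadal Ad Ib (18.3 to 109 CPM) and thymic Ad Ia (0.915 to 201 CPM). For Mdh2 the Ad IIc interval (291 to 393 CPM) met that of thymic Ad Ib (9.85 to 294 CPM).

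Between depots, the cycle enzymes as a sum, but not each of them, were higher in thymic than in epigonadal Ad I nuclei. Pcx differed by less than its counting error. The 8 enzymes had 65 UMIs (1244 CPM) in the 84 thymic Ad I nuclei and 134 UMIs (508 CPM) in the 258 epigonadal ones, a log2 ratio of 1.30 (0.84 to 1.73). The ratio was 1.21 (0.52 to 1.84) within Ad Ia, where 3 of 5 members with enough UMIs were at least 2-fold higher, beside 16.4% of genes, and 0 lower, beside 18.3%. It was 1.39 (0.74 to 1.99) within Ad Ib, where 3 of 6 were higher, beside 21.4%, and 0 lower, beside 16.0%. Ogdh had 24 UMIs against 38, or 459 against 144 CPM, at 1.68 (0.87 to 2.45). Dlst, its partner subunit, had 10 against 11 UMIs, at 2.21 (0.81 to 3.57). That ratio came from Ad Ib, with 8 against 1 UMIs (325 against 8.32 CPM), while Ad Ia had 2 against 10 (72.3 against 69.6 CPM; 0.31, -3.18 to 2.29). Idh3a, the catalytic subunit of the NAD-dependent isocitrate dehydrogenase, had 10 against 17 UMIs, at 1.60 (0.28 to 2.78). The pooled intervals of these 3 of 8 members lay above 0, beside 7.48% of the 5346 genes with 10 or more UMIs. The 2 scalings to a typical gene given below shift every ratio by -0.34 and -0.52. Under either, the Idh3a interval holds 0, while those of Ogdh and Dlst stay above it. The share over all genes was not counted there.

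Cs, which condenses acetyl-CoA with oxaloacetate, stood at 1.03 (-0.31 to 2.15) and Suclg1, the alpha subunit of succinyl-CoA ligase, at 1.20 (-0.38 to 2.51). Mdh2 at -0.10 (-3.55 to 1.78) and Idh3b, a regulatory subunit of the NAD-dependent enzyme, at -0.33 (-6.29 to 2.02) rested on 2 and 1 thymic UMIs. Idh2 had 2 thymic and 7 epigonadal UMIs and was below the minimum of 10. Pcx had 37 against 161 UMIs, or 708 against 610 CPM, a log2 ratio of 0.23 (-0.34 to 0.74).

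Of the 8 members that reached 10 UMIs, 5 were at least 2-fold higher in thymic Ad I nuclei, beside 15.2% of the 5346 genes that reached it. On the other side, 0 were at least 2-fold lower, beside 17.0%. The members' median log2 ratio was 1.11, against 0.08 over all these genes. Scaling to a typical gene in place of the total lowered every ratio of this comparison, by 0.34 on the log2 scale with edgeR's TMM and by 0.52 with the median of ratios. The summed cycle enzymes then stood at 0.96 and 0.78, 3 members were at least 2-fold higher under either, beside 7.43% and 5.11% of genes, and Pcx turned to -0.11 and -0.29.

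Several other features moved with this depot difference. Mitochondrially encoded UMIs made up 14.7% of thymic and 5.58% of epigonadal Ad I UMIs. Nuclear RNA (3 genes, all with UMIs in both) stood at 59455 against 42411 CPM. Brown or beige adipocyte markers stood at 3350 CPM in thymic Ad I nuclei (8 of 8 with a UMI) and 383 CPM in epigonadal ones (6 of 8). T cell or thymocyte markers stood at 498 CPM (7 of 10) and 64.4 CPM (3 of 10). Lower in thymic Ad I nuclei were macrophage markers, at 211 CPM (5 of 7) against 572 CPM (7 of 7), fibroblast markers, at 172 CPM (3 of 6) against 466 CPM (6 of 6), and ribosomal protein RNA, at 13495 against 18886 CPM. In the unlabelled barcodes, thymic over epigonadal, Ogdh stood at 0.31 (0.16 to 0.46), Dlst at 0.50 (0.26 to 0.76), Idh3a at -0.42 (-0.66 to -0.18) and the summed cycle enzymes at -0.30 (-0.38 to -0.23). The part of these features in the difference was not tested. With 1000 or more UMIs per nucleus, 9 thymic and 79 epigonadal Ad I nuclei were left and the summed cycle enzymes stood at 1.11.

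**Figure D2:**
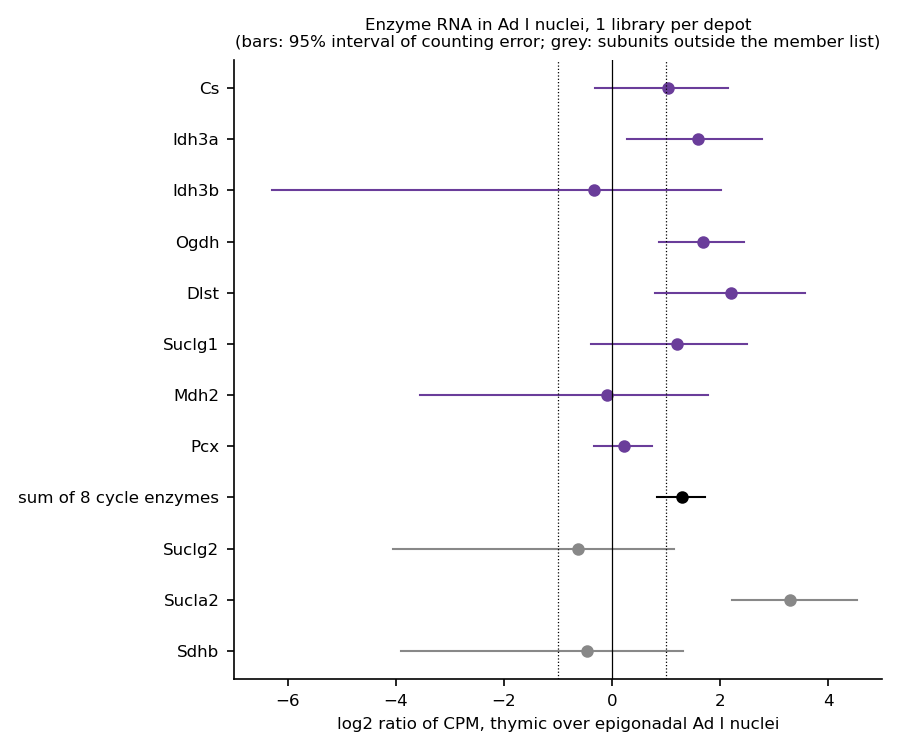
Log2 ratio of CPM, thymic over epigonadal Ad I nuclei (horizontal axis), for the members with at least 10 UMIs (purple), the 8 summed cycle enzymes (black) and 3 other subunits of the cycle, Sucla2, Suclg2 and Sdhb (grey), with 95% intervals of counting error and dotted lines at 2-fold. The sum sits at 1.30 and Pcx at 0.23, and Idh3b and Mdh2 have the widest intervals among the members.

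Other subunits of the cycle were described in the same comparison. Of 9 such genes 7 reached 10 UMIs, 5 were at least 2-fold higher in thymic Ad I nuclei, beside 15.2% of all genes, and 0 were lower, beside 17.0%, with a median of 1.11. Sucla2, the subunit that makes the succinyl-CoA ligase ATP-specific, had 22 thymic UMIs against 11, at 3.31 (2.23 to 4.53). Most came from Ad Ib, with 18 against 5 UMIs (732 against 41.6 CPM), and 1 thymic nucleus held 5 of the 18. Ad Ia had 4 against 6, with overlapping intervals (39.4 to 370 and 15.3 to 91 CPM). In unlabelled barcodes Sucla2 stood at 150 CPM (thymic) and 88.7 CPM (epigonadal). The lowest were Suclg2, the GTP-specific partner, at -0.63 (-4.06 to 1.14), and Sdhb, the iron-sulfur subunit of succinate dehydrogenase, at -0.47 (-3.91 to 1.32), with 2 thymic UMIs each.

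Genes of pyruvate entry gave 11 of 14 with enough UMIs, of which 3 were at least 2-fold higher and 1 lower, with a median of 0.62. For this list and the next ones, the shares over all genes were again 15.2% higher and 17.0% lower. Pdk4, a kinase that inhibits pyruvate dehydrogenase, stood at 2.05 (0.86 to 3.19), and Dlat, the acetyltransferase of that complex, at 1.94 (0.50 to 3.29). Pdhb at -1.21 (-7.14 to 0.92) and Pdha1 at -0.20 (-3.65 to 1.65), which together form its first enzyme, were lowest. Of 13 genes of cytosolic partners and other refilling reactions 9 reached 10 UMIs, 2 were at least 2-fold higher and 0 lower, with a median of 0.59. Me3, the mitochondrial NADP malic enzyme, had 7 UMIs against 5 (2.78, 0.95 to 4.82) and Aco1, cytosolic aconitase, stood at 1.30 (0.02 to 2.42). Glud1, glutamate dehydrogenase, was among the lowest at -0.27 (-2.10 to 0.98). Among 6 mitochondrial carriers 1 reached 10 UMIs. That was Slc25a1, the citrate carrier, with 0 thymic UMIs, which allows up to 57.4 CPM, and 13 epigonadal UMIs (49.3 CPM), so no fold is given.

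Ad IIa nuclei differed between depots in the opposite direction. The 8 cycle enzymes had 170 UMIs (423.5 CPM) in 231 thymic nuclei and 776 UMIs (627 CPM) in 590 epigonadal ones, a log2 ratio of -0.56 (-0.81 to -0.33). Pcx had 5 against 117 UMIs, at -2.79 (-4.57 to -1.66), and Mdh2 14 against 144, at -1.69 (-2.65 to -0.95). Idh2, with 5 against 37 UMIs, stood at -1.15 (-2.97 to 0.09). These 3 of 9 members were at least 2-fold lower, beside 16.2% of genes, and 0 were higher, beside 5.44%. Ogdh, at -0.25 (-0.71 to 0.18), did not differ beyond counting error. The members' median was -0.55 against -0.02 over all genes tested. Between these groups adipocyte markers stood at 3694 CPM (10 of 11 with a UMI) against 9244 CPM (11 of 11), and endothelial markers at 12064 against 8896 CPM, with 10 of 10 in each. Mitochondrially encoded UMIs made up 12.8% against 4.91%, and the part of these features in the difference was not tested.

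Over all labelled nuclei the cycle enzymes had 278 thymic UMIs (519.7 CPM) and 1756 epigonadal UMIs (814 CPM), at -0.64 (-0.83 to -0.46). Mdh2 at -2.12 (-2.90 to -1.49), Pcx at -1.83 (-2.33 to -1.39) and Idh2 at -1.70 (-3.03 to -0.75) were the 3 of 9 members at least 2-fold lower, beside 20.2% of genes, and 0 were higher, beside 8.12%. This sum mixes labels in unlike shares. Ad IIc, with the highest epigonadal sums, made up 658 of 1564 labelled epigonadal nuclei and 34 of 365 labelled thymic nuclei.

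Within the thymic library, Ad I stood above Ad IIa for most members. The 8 cycle enzymes gave a log2 ratio of 1.56 (1.12 to 1.98), and Pcx, with 37 UMIs against 5, gave 5.71 (4.48 to 7.53). Idh3a stood at 2.69 (1.31 to 4.02), Dlst at 2.05 (0.75 to 3.19), Ogdh at 1.74 (0.97 to 2.43), Suclg1 at 1.80 (0.23 to 3.11) and Cs at 1.52 (0.18 to 2.62). Of 8 members with enough UMIs 6 were at least 2-fold higher, beside 20.2% of genes. Idh3b, with 1 UMI against 23 (-1.03, -6.95 to 1.04), was the 1 at least 2-fold lower, beside 28.2%. Scaling to a typical gene shifted every ratio of this contrast by -0.41, with TMM and with the median of ratios. The interval of the summed cycle enzymes was then 0.71 to 1.57 under either. That shift is larger than the low ends of the Cs and Suclg1 intervals, which then include no difference. Adipocyte markers stood at 8595 CPM in thymic Ad I and 3694 CPM in Ad IIa (10 of 11 in each), brown or beige markers at 3350 and 187 CPM (8 and 7 of 8), and endothelial markers at 1474 and 12064 CPM (9 and 10 of 10). Nuclear RNA stood at 59455 and 17823 CPM. Their part in this contrast was not tested.

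Within the epigonadal library, Pcx was again higher in Ad I, with 161 against 117 UMIs and a log2 ratio of 2.69 (2.34 to 3.05). The 8 cycle enzymes were slightly lower, at -0.30 (-0.58 to -0.04), and Mdh2 was lower at -1.19 (-2.18 to -0.42). Pcx was the 1 of 9 members at least 2-fold higher, beside 17.5% of genes, and Mdh2 the 1 lower, beside 19.8%. Here nuclear RNA stood at 42411 CPM in Ad I and 10402 CPM in Ad IIa, adipocyte markers at 10775 and 9244 CPM (11 of 11 in each) and endothelial markers at 1345 and 8896 CPM (10 of 10 in each). Macrophage markers stood at 572 and 209 CPM, fibroblast markers at 466 and 189 CPM and B cell markers at 125 and 17 CPM, with every marker of these lists detected in each. Brown or beige markers stood at 383 and 51.7 CPM (6 of 8 in each) and ribosomal protein RNA at 18886 and 35107 CPM. The part of all these features was likewise not tested. Pcx thus had the same direction in both depots and the summed cycle enzymes did not. The difference between the depots in this contrast was not tested.

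**Figure D3:**
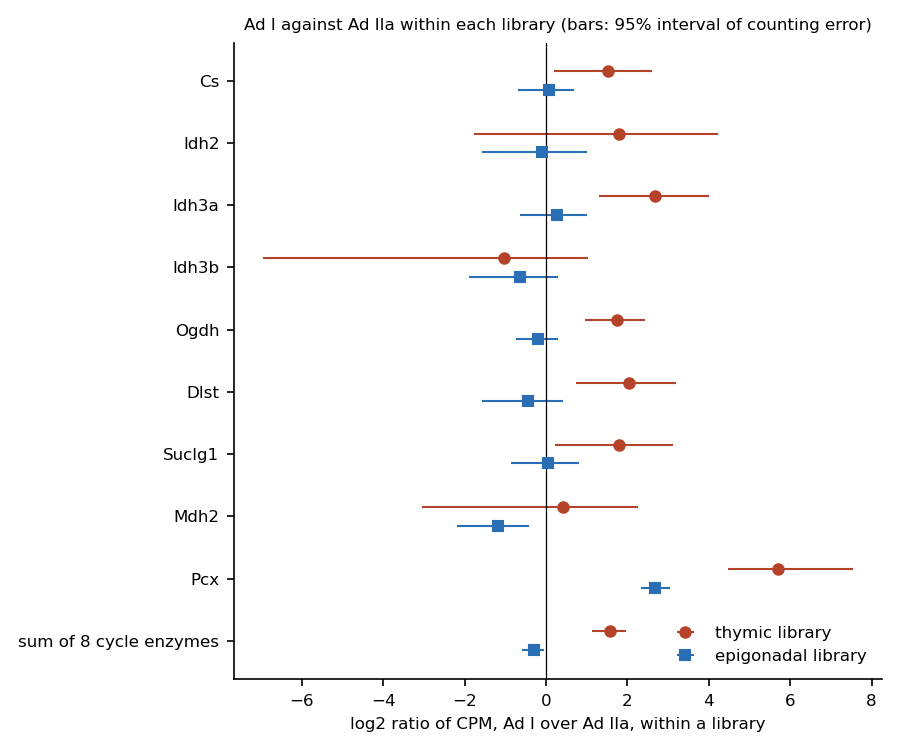
Log2 ratio of CPM, Ad I over Ad IIa within a library (horizontal axis), for each member and the 8 summed cycle enzymes, in the thymic (red circles) and epigonadal library (blue squares), with 95% intervals of counting error. The thymic and epigonadal sums sit at 1.56 and -0.30, and Pcx sits at 5.71 and 2.69.

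Against the unlabelled barcodes of the same library, the cycle enzymes in Ad I stood at 1.01 (0.62 to 1.36) in the thymus and -0.59 (-0.86 to -0.35) in epigonadal fat. Pcx stood at 3.10 (2.56 to 3.58) and 1.58 (1.33 to 1.83). In the thymus 6 of 9 members were at least 2-fold higher, beside 37.9% of genes, and 0 lower, beside 13.4%. The median over all genes was 0.58 in this thymic contrast. Scaling to a typical gene lowered its ratios by 0.56 with TMM and by 0.83 with the median of ratios. The thymic cycle enzymes then stood at 0.45 (0.06 to 0.80) and 0.18 (-0.20 to 0.53), so that the second interval held 0. Members at least 2-fold higher numbered 2 and 1 under these scalings, beside 23.5% and 16.4% of genes. With the median of ratios Idh3b stood at -1.10 and Mdh2 at -1.14, on 1 and 2 Ad I UMIs. The share of all genes at least 2-fold lower under that scaling was not counted, so these values are given without a reading. In those unlabelled thymic barcodes 51.2% of UMIs were mitochondrial. Adipocyte markers stood at 8595 CPM in thymic Ad I and 2468 CPM in unlabelled thymic barcodes (10 and 11 of 11). T cell or thymocyte markers stood at 498 and 5052 CPM (7 and 10 of 10) and ribosomal protein RNA at 13495 and 42849 CPM. In epigonadal fat 1 was higher, beside 15.9%, and 1 was lower, beside 17.2%: Pcx and Mdh2. There nuclear RNA stood at 42411 CPM in Ad I and 13329 CPM in unlabelled barcodes. Ribosomal protein RNA stood at 18886 and 48619 CPM and erythroid markers at 584 and 9534 CPM (4 of 4 in each). The part of these features in either contrast was not tested.

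Epigonadal Ad IIc nuclei combined high cycle enzymes with high Pcx. The 8 enzymes stood at 1.58 (1.31 to 1.86) over epigonadal Ad I, with Mdh2 at 2.73 (1.97 to 3.72), Idh3b at 2.10 (1.17 to 3.35), Idh2 at 2.07 (1.03 to 3.53), Idh3a at 1.77 (1.06 to 2.63), Suclg1 at 1.60 (0.86 to 2.50) and Cs at 1.28 (0.65 to 2.02). These were the 6 of 9 members at least 2-fold higher, beside 24.3% of genes, and 0 were lower, beside 37.5%. Pcx stood at 0.03 (-0.25 to 0.31), with 624 against 610 CPM. Adipocyte markers stood at 34299 CPM in Ad IIc and 10775 CPM in Ad I. Endothelial markers stood at 509.5 against 1345 CPM (10 of 10 in each), macrophage markers at 136 against 572 CPM (6 and 7 of 7) and brown or beige markers at 147 against 383 CPM (5 and 6 of 8). Nuclear RNA stood at 1829 against 42411 CPM and ribosomal protein RNA at 76449 against 18886 CPM. The part of all these features in the difference was not tested.

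Across the 12 groups formed by 2 libraries, 5 labels and the unlabelled barcodes, Pcx and the summed cycle enzymes had a Pearson correlation of 0.620 on log2(CPM + 10). Of 2664 genes with at least 200 labelled UMIs, genes among the most like Pcx were Plin1 (0.986), which coats lipid droplets, Enpp2 (0.983), which makes lysophosphatidic acid, Slc1a5 (0.976), a glutamine carrier, and Sort1 (0.976), a sorting receptor. Among the most like the summed cycle enzymes were Acadm (0.979), of fatty acid oxidation, Ndufs3 (0.927), of respiratory complex I, Sdha (0.906), of succinate dehydrogenase, and Xbp1 (0.896), a transcription factor of the unfolded protein response. The groups of a library share its preparation and depth, so these values describe 12 points and are given without a test.

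Chromatin was read in 6-month thymic nuclei as transposase fragments over each gene plus 2 kb on either side, scaled to 1000000 fragments of the group (FPM). The authors' labels here were thyAD I (146 nuclei, 1646902 fragments), thyAD II (140 nuclei, 2189613 fragments) and Immune (31 nuclei, 561387 fragments), and these labels were not checked against RNA. The median enrichment at gene starts was 7.16 in thyAD I, 6.59 in thyAD II and 8.09 in Immune nuclei. Median fragments per nucleus were 10106, 15057 and 16036 in the same order. The part of these in the contrasts between labels was not tested. The sources used here do not tie these labels to those of the 4-month nuclei. Labels and joint clusters were made from these same nuclei, so contrasts between them describe the annotation here too.

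Summed fragments of the 8 cycle enzymes were 412 FPM for thyAD II and 522 FPM for thyAD I, which is -0.34 (-0.48 to -0.20) as a log2 ratio. Ogdh (65.3 against 92.3; -0.50, -0.84 to -0.16), Mdh2 (59.8 against 83.2; -0.48, -0.83 to -0.12) and Idh3a (65.8 against 91.1; -0.47, -0.81 to -0.13) had intervals below 0, beside 5.54% of genes. Pcx had 364 in thyAD II and 354 in thyAD I, at 0.04 (-0.11 to 0.20). In all, 8 of 9 members lay below 0, beside 47.8% of genes, with a median of -0.28 against 0.02 over 27863 genes. None reached 2-fold: 0 were higher, beside 4.46% of genes, and 0 lower, beside 2.99%. Of the 9 other cycle subunits, 4 lay above 0, beside 52.2% of genes, with a median of -0.10. Above 0 were also 4 of 14 genes of pyruvate entry (median -0.08) and 2 of 6 mitochondrial carriers (-0.28). Among cytosolic partners and other refilling reactions 6 of 13 did so (-0.04). The windows of Cs, Idh3a, Idh3b, Dlst, Mdh2 and Pcx also reach into other named genes (Acsbg1 for Idh3a, Styxl1 for Mdh2), while those of Idh2, Ogdh and Suclg1 do not. Predicted genes, with symbols of Gm and a number, were left out of this check.

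The authors' joint clusters divided these labels further. Pcx differed inside thyAD I, with 309.5 FPM in cluster 1 (85 nuclei) and 450 in cluster 3 (61 nuclei), a log2 ratio of -0.54 (-0.78 to -0.29). Suclg1 went the other way, with 42.7 against 19.1, at 1.10 (0.16 to 2.31), and was the 1 member at least 2-fold higher, beside 6.24% of genes, with 0 lower, beside 3.77%. Inside thyAD II, Pcx had 372 in cluster 0 and 352.5 in cluster 4, at 0.08 (-0.13 to 0.29), and Idh2 28 against 51.8, at -0.89 (-1.56 to -0.23). There 0 of 9 members were at least 2-fold higher, beside 3.47% of genes, or lower, beside 3.48%. Immune nuclei lay below thyAD I for Idh3a (-0.95, -1.64 to -0.37), Mdh2 (-0.82, -1.51 to -0.23) and Pcx (-0.53, -0.82 to -0.27). Cs at 0.20 (-0.22 to 0.59) and Idh2 at 0.24 (-0.45 to 0.86) were on the other side of 0 within counting error. Idh3b, with 5 fragments against 33, was the 1 of 9 at least 2-fold lower, at -1.05 (-2.88 to 0.20), beside 9.48% of genes, and 0 were higher, beside 9.50%.

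**Figure D4:**
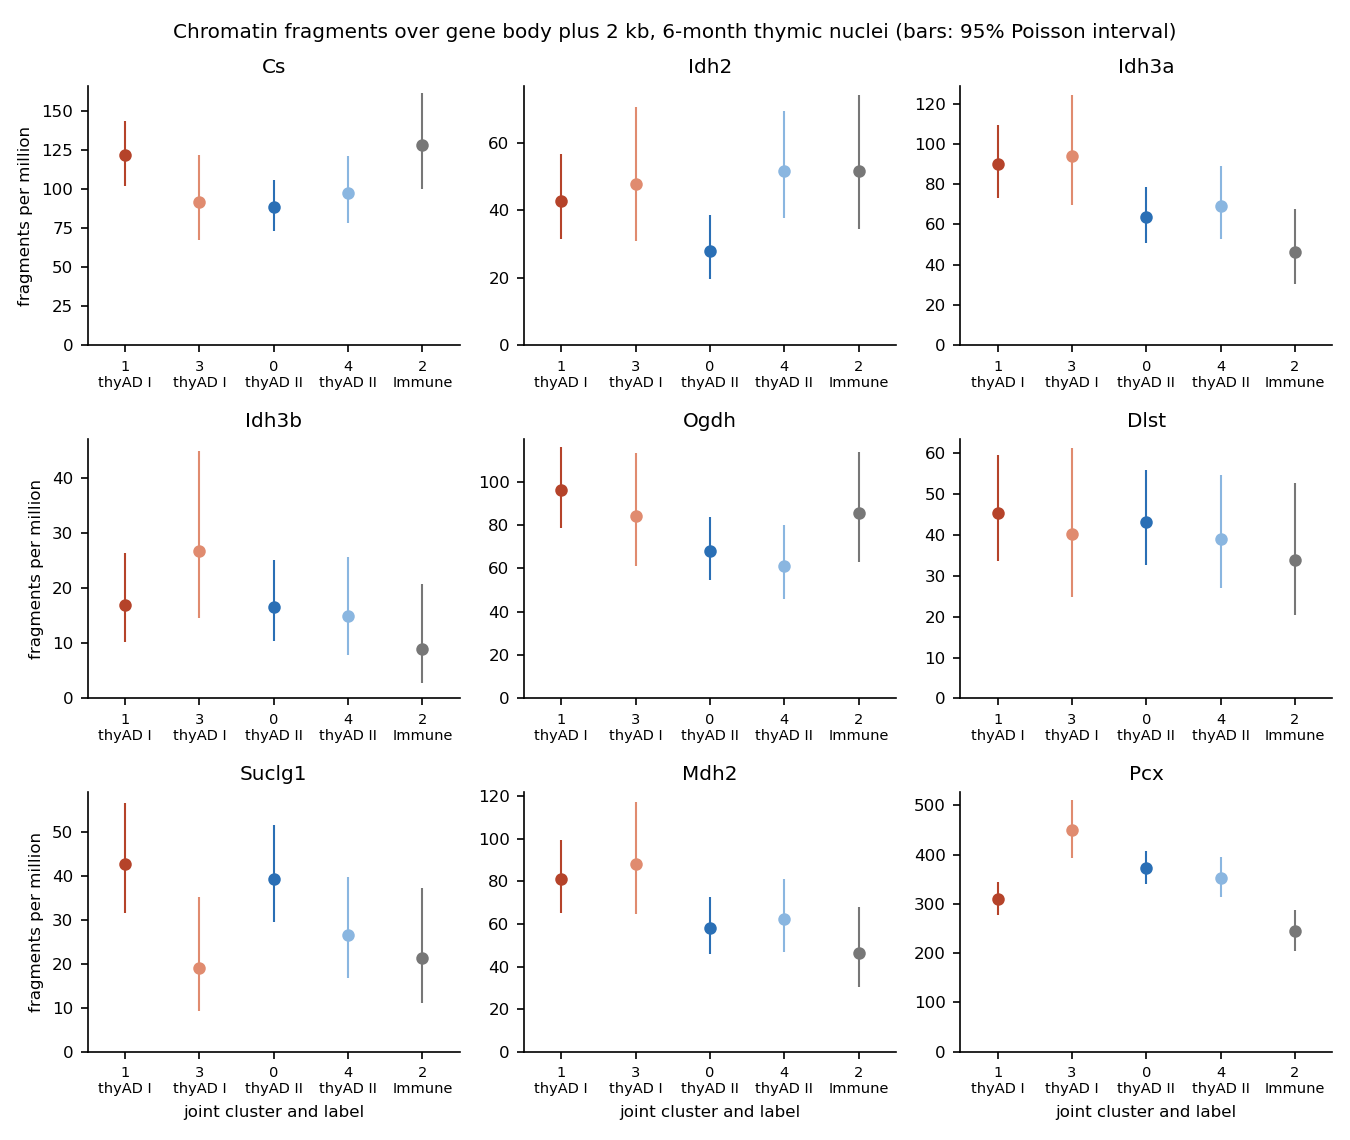
Fragments over each gene plus 2 kb (vertical axes, FPM, from 0) in the 5 joint clusters of the 6-month thymic nuclei (horizontal axes, with their labels), with 95% Poisson intervals. Ogdh, Mdh2 and Idh3a are higher in both thyAD I clusters than in both thyAD II clusters, and Pcx is highest in cluster 3 at 450.

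At the start sites, transposase cuts within 500 bases were counted. Both ends of a fragment counted as cuts, and the intervals took them as independent. Intervals at start sites are therefore too narrow, so an interval that ends close to no difference may in fact hold it. The upstream Pcx start, whose promoter with 3 CCAAT boxes is printed above, had 145 cuts per 1000000 fragments in thyAD I, 125 in thyAD II and 110 in Immune nuclei. In thyAD I that was above 99.6% of 32851 listed starts. The downstream start had 49.2, 43.8 and 39.2 in the same groups. Between thyAD II and thyAD I the upstream start stood at -0.22 (-0.47 to 0.04) and the downstream start at -0.17 (-0.61 to 0.28). Cluster 3 was above cluster 1 at both Pcx starts, with cluster 1 over cluster 3 at -0.56 (-0.94 to -0.17) upstream and -0.79 (-1.45 to -0.11) downstream. The median enrichment at gene starts was 6.68 in cluster 1 and 7.92 in cluster 3, with medians of 12369 and 8414 fragments per nucleus, and the part of this in the Pcx difference was not tested.

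The Ogdh start printed above had 103 cuts per 1000000 fragments in thyAD I and 75.8 in thyAD II, at -0.45 (-0.76 to -0.13). Later Ogdh starts, whose windows overlap it in part, stood in order at -0.45 (-0.76 to -0.13), -0.48 (-0.79 to -0.17), -0.72 (-1.12 to -0.33), -1.14 (-1.82 to -0.50) and -1.075 (-1.77 to -0.42). The last 2 rest on 33 against 55 and 32 against 51 cuts, and the share of all starts past 2-fold was not counted. The Mdh2 start had 149 and 102, at -0.54 (-0.81 to -0.27). The start windows lie inside the gene windows, so the same fragments enter both measures. These start-site intervals are too narrow as well, for the reason given above. The Cs start, at 0.04 (-0.31 to 0.40), did not differ beyond counting error between thyAD II and thyAD I. Immune over thyAD I stood at 0.71 (0.25 to 1.15) at this start, on 66 against 119 cuts. Over the gene window the same contrast stood at 0.20 (-0.22 to 0.59), within counting error.

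**Figure D5:**
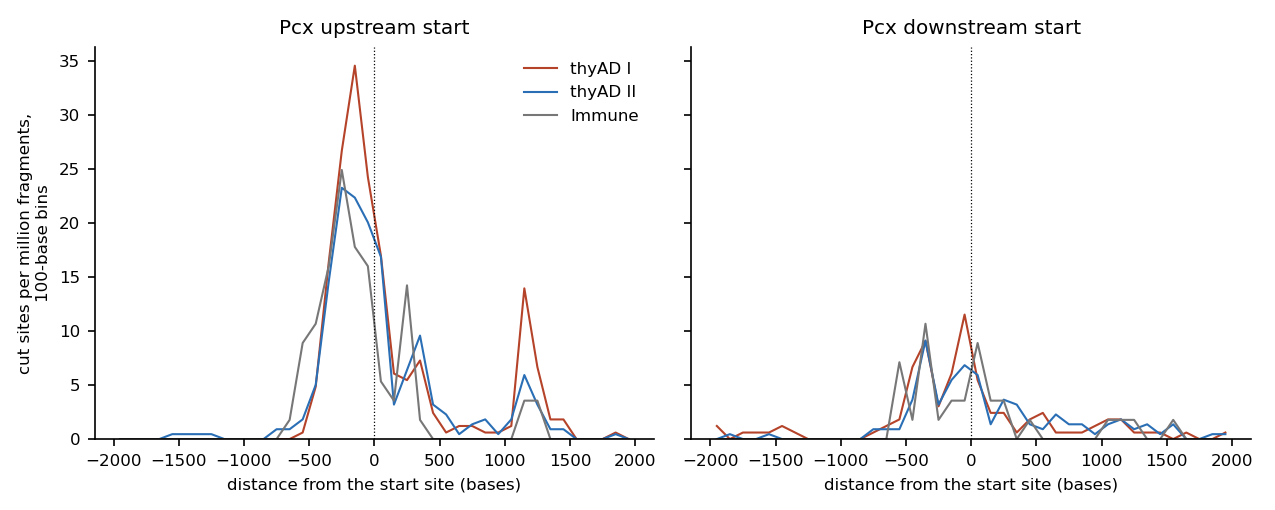
Transposase cuts per 1000000 fragments in bins of 100 bases (vertical axis) by distance from the upstream (left) and downstream (right) start of Pcx, for thyAD I (red), thyAD II (blue) and Immune nuclei (grey). The upstream start carries the taller profile in all 3 groups, as its counts of 145, 125 and 110 against 49.2, 43.8 and 39.2 state.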

How the data were processed

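The authors deposited raw UMI counts for every barcode, and the file headers name cellranger 7.2.0. The submitters' processing notes name Cell Ranger ARC 2.0.2, Seurat 5.1.0 and mm10. How introns were treated is not given in these sources. Deposited with the counts were labels, percent of mitochondrial UMIs, a doublet class (1929 of 1929 labelled nuclei were singlets) and, for the 6-month nuclei, the enrichment ratio at gene starts, per the file headers. The fragments were deposited as text, on GRCm38. The 6-month table used here stops in row 318, so 317 nuclei were used, and the 6-month RNA counts were not analysed here.

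UMIs were summed by library and label. Log2 ratios had 0.5 added to each sum, with exact binomial intervals (Clopper-Pearson), and levels had exact Poisson intervals. A gene counted as higher or lower past 2-fold with at least 10 counts over both sides, and a count of 0 allowed 3. No test or p-value was computed, since a group is 1 library. Members and gene lists were chosen with earlier results of these data known. All members were named, of each other list the 2 highest and 2 lowest with 10 UMIs in Ad I, and the 5 genes most alike, apart from 3 genes not reported here. The calculations were tested on simulated data. Python 3.11.15, scipy 1.17.1 and edgeR 4.0.16 (TMM factors only) were used. Alternatives were another scaling, equal weight per nucleus, deeper nuclei, another added count, other totals and other chromatin windows. Not planned beforehand were leaving out the nucleus with most member UMIs on each side, equal weight of Ad Ia and Ad Ib, and stricter sets of unlabelled barcodes.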

Additional observations from a re-analysis of the deposited data

Results flagged for a closer look

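The sum of the 8 cycle enzymes had opposite directions in the 2 depots for Ad I over Ad IIa, with a thymic log2 ratio of 1.56 and an epigonadal one of -0.30. It did so again for Ad I over unlabelled barcodes, at 1.01 and -0.59, but there the thymic value fell to 0.45 with TMM and to 0.18 (-0.20 to 0.53) with the median of ratios, whose interval holds 0. The same Ad I nuclei enter both contrasts of a library. With 1 library per depot the difference between depots was not tested.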

How the results depend on the processing

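Of 114 alternative values of the sums 97 moved by less than the counting interval and 17 moved further. Of 556 alternative values of single members and of counts of members, 534 stayed within their limit, 21 moved further and 1 changed sign from at least 2-fold. The limit was the counting interval for single members, which is wide at low counts, and a fixed fold around the main count for counts of members. At any size, 1 value of a sum and 38 of members changed sign. The 1 from at least 2-fold was Idh3b in thymic Ad I over Ad IIa, at 0.72 with 5 UMIs added, which rests on 1 UMI in Ad I. With the median of ratios, the sums of 9 and 8 genes stood at -1.12 and -0.90 over all labelled nuclei and at 0.29 and 0.78 in Ad I between depots, where the sum of 9 had been 0.81 (0.47 to 1.13) and its shifted interval (-0.05 to 0.62) held 0. In thymic Ad I over Ad IIa, the sum of 9 was 1.76 with TMM and 1.76 with the median of ratios, each after a log2 shift of -0.41 from its unscaled value. Thymic Ad I over unlabelled barcodes gave 0.92 and 0.45 with TMM, 0.65 and 0.18 with the median of ratios, 1.93 (9 genes) with 1000 or more UMIs, 1.76 (9 genes) against unlabelled barcodes of 500 or more UMIs and 2.0 and 1.41 against those under 20% mitochondrial, the last 2 chosen after seeing the data. Epigonadal Ad I over unlabelled barcodes (9 genes) turned from 0.20 to -0.07 with equal weight per nucleus, the sign change of a sum, and gave 0.02 with TMM and 0.50 with 1000 or more UMIs. The cause of these shifts was not tested. Members at least 2-fold higher in thymic Ad I between depots numbered 5, beside 15.2% of genes. With TMM and with the median of ratios they numbered 3, beside 7.43% and 5.11%. With 1000 or more UMIs, where 9 thymic nuclei were left, they also numbered 3, but the share over all genes was not counted there. The Ad I sum of 8 ranged from 0.78 to 1.46 over its alternatives. No paired analysis was possible because each group is 1 library. Depth limits Idh2, Idh3b and Mdh2 most, with 1 or 2 UMIs each in thymic Ad I nuclei.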
